A study of Mus musculus with 6 samples.

Results

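The ARID genes encode proteins with an AT-rich interaction domain, a fold that binds DNA. The 10 genes described here are Arid1a, Arid1b, Arid2, Arid3a, Arid3b, Arid4a, Arid4b, Arid5a, Arid5b and Jarid2, taken by symbol from a mouse gene table of 55471 gene IDs. Each symbol matched 1 ID, and all 10 genes were among the 13348 genes that passed the filter on low values. RNA was sequenced from GMLPs of mouse bone marrow, which are progenitors sorted as cells that lack lineage markers and CD150 and carry Kit, Sca1 and CD48. The sorted cells were kept in culture for 3 days with doxycycline (DOX). There were 3 libraries of genotype MLL-ENL (ME) and 3 of genotype LIN28B*MLL-ENL (L28BME). Cells of both groups therefore carried MLL-ENL, a leukaemia fusion of the methyltransferase gene MLL with ENL, and both received DOX. By the genotypes given, the groups differ by LIN28B, and whether they differ in other ways is not known. The sources used here do not give the promoters that drive the alleles or the strain and age of the mice. They also do not say whether replicates are different animals or cultures, so the p-values reflect the spread among these libraries alone, and that spread may be technical.

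ARID proteins act as parts of chromatin complexes. ARID1A and ARID1B are alternative subunits of the BAF nucleosome remodelling complex and ARID2 belongs to its sister complex PBAF. ARID4A and ARID4B bind the retinoblastoma protein and the SIN3-HDAC corepressor, and JARID2 guides Polycomb repressive complex 2 (PRC2). ARID3A, known as Bright, was described as an activator of immunoglobulin heavy chain transcription in B cells, and ARID3B is its close paralog. LIN28B, which binds RNA and is made in fetal blood progenitors, stops let-7 microRNAs from maturing, and Arid3a and Arid3b are known as let-7 targets.

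The deposited values were TPM, an abundance corrected for transcript length and scaled to a fixed total per library. They summed to between 999919 and 999996 per library, and between 13215 and 13288 genes reached 1 TPM. The depth behind the values is unknown, so no counting interval is given. The mouse gene model of Lin28b was listed at 0 in all 3 ME libraries, while its L28BME values were 11.2, 11.7 and 11.9 TPM. These values cannot tell an introduced LIN28B from the endogenous gene. Of the sort genes, Kit was at 76.5 to 106 TPM in ME and 73.2 to 88.4 TPM in L28BME. Cd48 was at 291 to 302 and 226 to 231 TPM, and Slamf1, which encodes CD150, was under 1 TPM in every library. Ly6a, which encodes Sca1, was at 9.64 to 11.8 TPM in ME and 1.38 to 3.18 TPM in L28BME, so this defining marker of the gate was low in the second group.

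Arid3a and Arid3b stood far above the other ARID genes in their change: both were about 3 times as abundant in L28BME, while none of the other 8 reached a log2 fold change of 1. Of the 10 genes, 3 were called higher in L28BME, which were Arid3a, Arid3b and Jarid2, and 0 were called lower (limma test of log2(TPM + 1) values, with p adjusted by Benjamini-Hochberg over all tested genes and a threshold of 0.05). Over all 13348 tested genes, 8.28% were called higher and 6.6% lower. Without the Arid3 genes, 1 of 8 members was called higher, with Jarid2 as the only one. The median log2 fold change was 1.61 for the Arid3 pair, -0.07 for the other 8 and 0.00333 for all tested genes. For 5 of the 10 genes the groups had no overlap in their values, beside 36.7% of all tested genes. In the plot of levels by library these are Arid3a, Arid3b, Arid1a and Jarid2, with higher values in L28BME, beside 19.4% of all tested genes, and Arid2, with lower values, beside 17.4%.

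**Figure D1:**
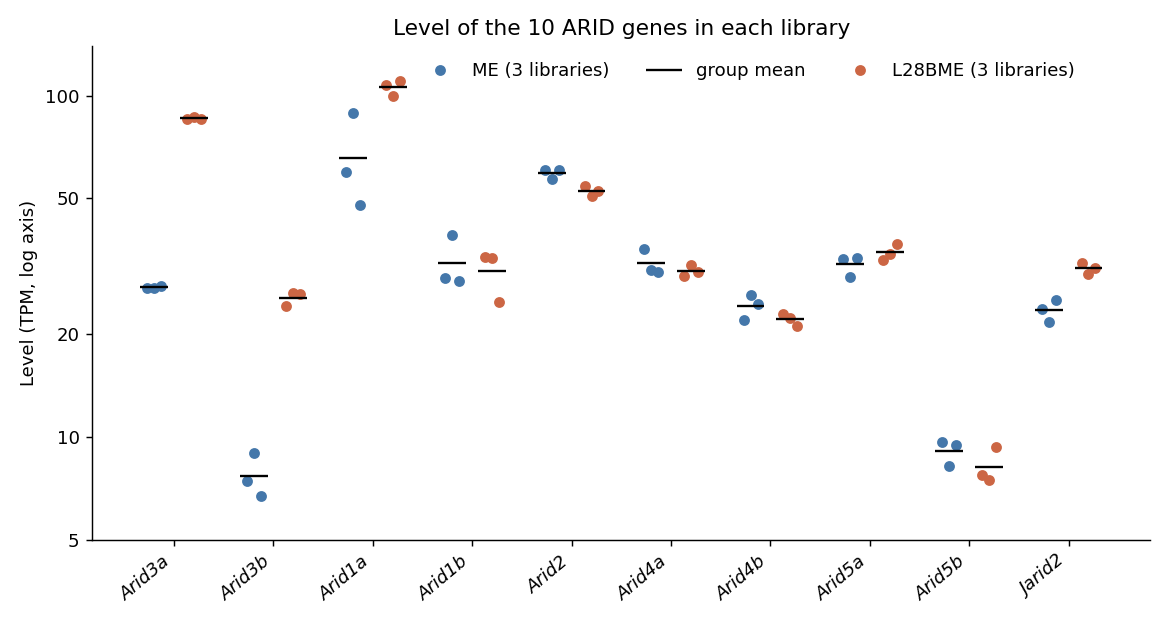
Level of the 10 ARID genes in TPM (log axis) in the 3 ME and the 3 L28BME libraries, one point per library, with a bar at each group's mean. Arid3a moves from a mean of 27.5 to 86.0 TPM and Arid3b from 7.70 to 25.6 TPM, while most other members overlap between groups.

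Arid3a (ENSMUSG00000019564, chromosome 10, 79927043 to 79955018 on the plus strand of GRCm38) was at 27.4, 27.4 and 27.7 TPM in ME. In L28BME it was at 85.6, 87.0 and 85.4 TPM. Replicates lay within 1 to 2 TPM of each other and the groups were far apart. The mean rose from 27.5 ± 0.180 to 86.0 ± 0.860 TPM (SD, n = 3 per group). Its log2 fold change was 1.61 (SE 0.035, limma adjusted p = 1.88e-05), and 3 of the 13348 tested genes had a smaller p. In ME, 1.38% of the 4648 genes within 2-fold of its level had a smaller spread between replicates, so it was also among the steadiest genes of its abundance.

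Arid3b (ENSMUSG00000004661, chromosome 9, 57790353 to 57836793 on the minus strand) was at 7.43, 8.95 and 6.72 TPM in ME. In L28BME it was at 24.3, 26.4 and 26.2 TPM. Its lowest L28BME value was well above its highest ME value. The mean rose from 7.70 ± 1.14 to 25.6 ± 1.17 TPM (SD, n = 3 per group). This was a log2 fold change of 1.62 with an SE of 0.11 (limma adjusted p = 6.44e-04). Both paralogs were called without any 1 of the 6 libraries, with log2 fold changes of 1.60 to 1.61 for Arid3a and 1.54 to 1.72 for Arid3b. On the scale of TPM + 1, Arid3b ranked 35 and Arid3a 36 by size of increase among all tested genes. Because these are bulk samples, a change in the share of cells of one type and a change in RNA per cell cannot be told apart.

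The proportion between the paralogs lay in the same range in both groups. The ratio of Arid3a to Arid3b TPM was 3.68, 3.06 and 4.12 in the ME libraries. It was 3.53, 3.30 and 3.26 in the L28BME libraries, inside the range of ME. The log2 ratio of TPM + 1 was 1.72 ± 0.192 in ME and 1.71 ± 0.0591 in L28BME, a difference of -0.01. An exact two-sided permutation test over the libraries gave p = 1, and 3 against 3 cannot go below 0.1, so the test could not have passed the threshold. Without any 1 library the difference was between -0.11 and 0.08. It was -0.089 with a pseudocount of 0.1 and -0.052 with 0.5, so the value depends on the pseudocount.

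Matches to the let-7 seed in the 3′ untranslated regions (UTRs) separated the Arid3 pair from the other members. Most let-7 microRNAs share the bases that pair with targets, the seed at positions 2 to 8, though mmu-let-7j was listed with a different seed. In RefSeq (GRCm38.p6), 10 mature mouse sequences had the seed of let-7a. A few are shown here 5′ to 3′ with the seed in capitals.
mmu-let-7a-5p: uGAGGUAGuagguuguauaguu
mmu-let-7d-5p: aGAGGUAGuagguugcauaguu
mmu-let-7g-5p: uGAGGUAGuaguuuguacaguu
mmu-miR-98-5p: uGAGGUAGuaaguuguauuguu

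The longest annotated 3′ UTR of each gene (GENCODE M21, GRCm38) was searched on the transcript strand for CTACCTC, which pairs with bases 2 to 8, and TACCTCA, which pairs with bases 2 to 7 and has an A opposite base 1. Where the motifs overlap they form CTACCTCA, an 8-base match that was counted once. The 3′ UTR of Arid3a, 3082 bases long, held 4 matches, of which 1 was the 8-base form. They are shown 5′ to 3′ with 22 bases each, ending opposite base 1 of the microRNA, with the matched bases in capitals.
Arid3a, chr10:79952325-79952346, plus strand: tcaagcacgtctgttTACCTCA
Arid3a, chr10:79953896-79953917, plus strand: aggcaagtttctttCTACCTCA
Arid3a, chr10:79954225-79954246, plus strand: ttactgtccacctggTACCTCA
Arid3a, chr10:79954723-79954744, plus strand: gaaaaaactgttttCTACCTCt

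The 3′ UTR of Arid3b, 2160 bases long, held 5 matches and 0 of the 8-base form. The first lay 67 bases and the last 2148 bases after the stop codon, so the matches span nearly the whole UTR.
Arid3b, chr9:57792443-57792464, minus strand: ttgatgcacagaattTACCTCA
Arid3b, chr9:57791664-57791685, minus strand: tcaggctcactgaaaTACCTCA
Arid3b, chr9:57791011-57791032, minus strand: gcttatgcacaaacaTACCTCA
Arid3b, chr9:57790454-57790475, minus strand: taggccgtgactgaaTACCTCA
Arid3b, chr9:57790361-57790382, minus strand: atttcaataaagctCTACCTCt

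Of 10 matches in all 10 ARID genes, 9 were in Arid3a and Arid3b and 1 was in Arid1b, whose 3′ UTR is 4569 bases long. The other 7 members had 0 matches in 3′ UTRs of 988 to 3984 bases. The match in Arid1b is shown because it was the only one outside the Arid3 pair, and it pairs with bases 2 to 8.
Arid1b, chr17:5345155-5345176, plus strand: tgccccttcctaccCTACCTCt

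For comparison, 17.0% of the 10904 tested protein-coding genes with an annotated 3′ UTR held at least 1 match and 25 genes held 4 or more. Hmga2, the chromatin protein gene that is a standard let-7 target, held 7 matches and had a log2 fold change of 2.54. Among the 25 genes with 4 or more matches, 11 were called higher and 0 lower, or 9 and 0 of 23 without the Arid3 pair. The cut of 4 is equal to the count in Arid3a. The 9 include Lin28b, the gene of the genotype contrast, which was listed at 0 in ME, so its call adds no independent result. In the 9055 genes with 0 matches 8.36% were called higher and 7.56% lower, beside 9.57% and 7.28% of all 10904. With 1, 2 and 3 matches (1500, 275 and 49 genes), 14.9%, 16.7% and 14.3% were called higher and 6.13%, 4.73% and 8.16% lower. The share called higher thus did not rise steadily from 1 to 3 matches. The median log2 fold change was -0.00158, 0.0554, 0.0597 and 0.122 with 0, 1, 2 and 3 matches. It was 0.549 with 4 or more. The median 3′ UTR was 5116 bases long in the 25 genes and 961 bases in those with 0 matches, so these classes differ in length too. A match is a description of the sequence, and binding was not measured.

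**Figure D2:**
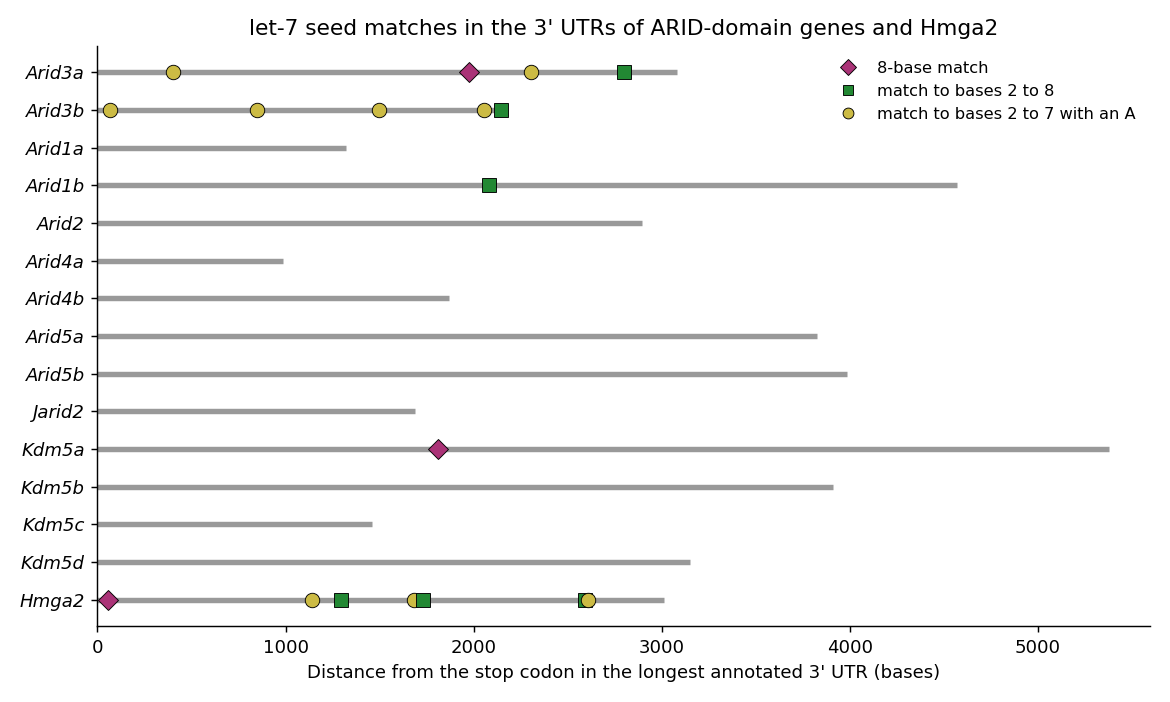
Position of let-7 seed matches, in bases from the stop codon, along the longest annotated 3′ UTR (grey bar) of the ARID-domain genes and Hmga2, with symbols for the 3 kinds of match. Arid3a holds 4 matches and Arid3b 5, Arid1b and Kdm5a hold 1 each, and the other ARID-domain genes shown hold 0. Arid3c, which did not pass the filter on low values, was not searched and is not shown.

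The BAF and PBAF members did not pass the test. Arid1a (ENSMUSG00000007880, chromosome 4, 133679008 to 133756769 on the minus strand), the member with the highest mean in both groups, was at 59.7, 89.0 and 47.8 TPM in ME. In L28BME it was at 107, 99.7 and 110.3 TPM. The groups did not overlap, but ME replicate 2 stood above the other ME libraries, and in those other libraries Arid2 was above Arid1a. The means were 65.5 ± 21.2 and 106 ± 5.43 TPM, with a log2 fold change of 0.73 (SE 0.21, 95% interval 0.21 to 1.25, limma adjusted p = 0.0763). Without ME replicate 2 the log2 fold change was 0.97 and passed (adjusted p = 0.0107), and the range over all alternatives was 0.0107 to 0.177. The spread of Arid1a in ME was larger than that of 97.8% of the 4002 genes within 2-fold of its level. In L28BME this share was 61.6% of 3052 genes.

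Arid1b (ENSMUSG00000069729, chromosome 17, 4994332 to 5347656 on the plus strand), which replaces ARID1A in some BAF complexes, was at 29.3, 39.1 and 28.7 TPM in ME and 33.7, 33.4 and 24.8 TPM in L28BME. The groups overlapped, and ME replicate 2 was again the highest. Its log2 fold change was -0.08 (95% interval -0.48 to 0.33, limma adjusted p = 0.799). The ratio of Arid1a to Arid1b TPM was 2.04, 2.27 and 1.66 in ME and 3.19, 2.99 and 4.45 in L28BME, without overlap, and its difference was not tested. Arid2 (ENSMUSG00000033237, chromosome 15, 96287518 to 96404992 on the plus strand), the PBAF subunit, was at 60.8, 57.1 and 60.4 TPM in ME and 54.6, 50.8 and 52.6 TPM in L28BME. All 3 L28BME values were below all 3 ME values. The log2 fold change was -0.17 (SE 0.046, limma adjusted p = 0.0595), just above the threshold. It passed when libraries were scaled to equal medians (adjusted p = 0.0398), after quantile normalization (0.0369), among protein-coding genes only (0.0497) and with a GC trend removed (0.0488), in a range of 0.0369 to 0.156 over all alternatives.

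The ARID4 genes, partners of the retinoblastoma protein, overlapped between groups. Arid4a (ENSMUSG00000048118, chromosome 12, 71015990 to 71098592 on the plus strand) was at 35.6, 31.0 and 30.4 TPM in ME and 29.7, 31.8 and 30.5 TPM in L28BME. The log2 fold change was -0.07 (95% interval -0.24 to 0.11, limma adjusted p = 0.583). Arid4b (ENSMUSG00000039219, chromosome 13, 14063232 to 14199603 on the plus strand) was at 22.0, 26.0 and 24.5 TPM in ME and 22.9, 22.3 and 21.2 TPM in L28BME. Its log2 fold change was -0.12 (95% interval -0.30 to 0.06, limma adjusted p = 0.336). For both genes the interval leaves out a change as large as that of the Arid3 pair.

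The ARID5 genes also overlapped between groups. Arid5a (ENSMUSG00000037447, chromosome 1, 36307733 to 36324029 on the plus strand), which encodes a protein known to stabilise inflammatory transcripts, was at 33.2, 29.5 and 33.4 TPM in ME and 33.0, 34.4 and 36.9 TPM in L28BME. The log2 fold change was 0.12 (95% interval -0.06 to 0.29, limma adjusted p = 0.334). Arid5b (ENSMUSG00000019947, chromosome 10, 68092520 to 68278740 on the minus strand), a partner of the demethylase PHF2 and a risk gene of childhood lymphoblastic leukaemia, was at 9.68, 8.24 and 9.46 TPM in ME. In L28BME it was at 7.72, 7.47 and 9.36 TPM. The log2 fold change was -0.14 (95% interval -0.41 to 0.12, limma adjusted p = 0.433).

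Jarid2 (ENSMUSG00000038518, chromosome 13, 44729474 to 44921643 on the plus strand), the PRC2 cofactor, was at 23.8, 21.8 and 25.2 TPM in ME. In L28BME it was at 32.3, 30.0 and 31.3 TPM, each above every ME library. The mean rose from 23.6 ± 1.69 to 31.2 ± 1.14 TPM, and the log2 fold change was 0.39 with an SE of 0.067 (limma adjusted p = 0.0146). That is close to the median of 0.42 among the 1105 genes called higher. The call was lost at adjusted p = 0.0551 without L28BME replicate 1 and 0.0507 without L28BME replicate 3, in a range of 0.0119 to 0.0551 over all alternatives. Its 3′ UTR held 0 let-7 seed matches.

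**Figure D3:**
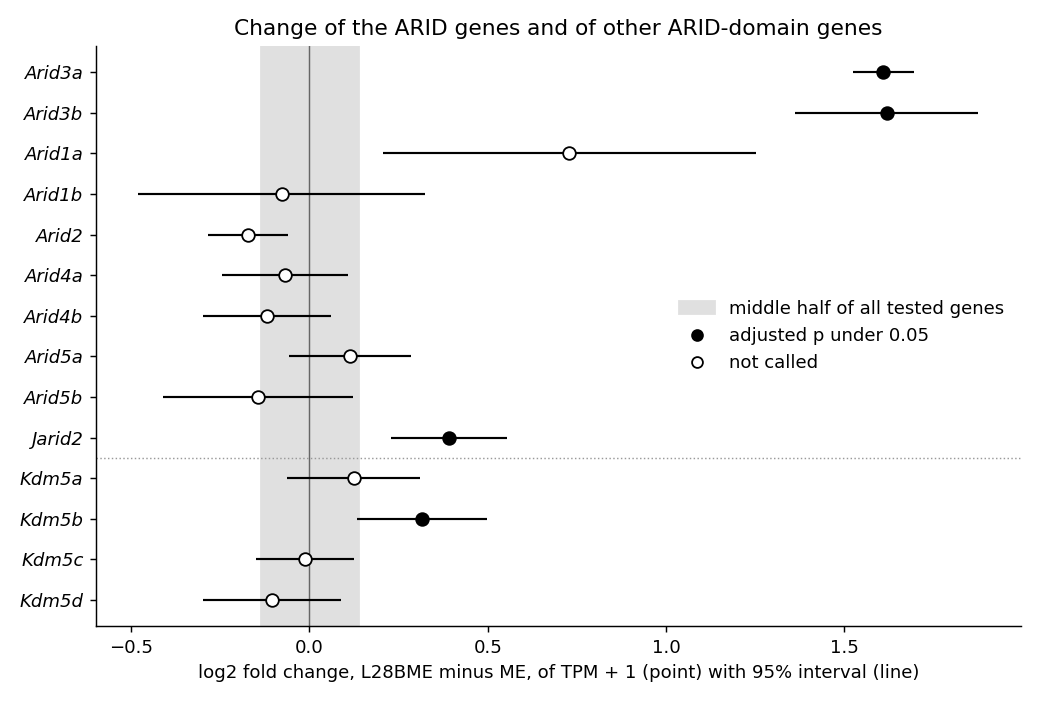
log2 fold change of TPM + 1, L28BME minus ME, for the 10 ARID genes and, below the dotted line, the KDM5 genes, with 95% intervals from limma. Filled points were called (adjusted p under 0.05), and the grey band runs from the lower to the upper quartile of all tested genes. Arid3a and Arid3b lie at 1.61 and 1.62, apart from all other genes shown.

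The order of the levels changed with the Arid3 pair. In ME, Arid1a and Arid2 were highest, with overlapping values. Next came Arid1b, Arid4a and Arid5a, each overlapping its neighbour at means of 32.0 to 32.4 TPM, and Arid3a was sixth, below all 3 without overlap. Arid4b and Jarid2 overlapped, and Arid5b and Arid3b were lowest and overlapped. In L28BME, Arid3a was second, below Arid1a and above Arid2 without overlap with either. Arid3b was eighth, where its values overlapped those of Arid1b and lay above those of Arid4b. Summed over the 10 genes, the level was 294 to 338 TPM in ME and 423 to 431 TPM in L28BME. The Arid3 pair made up 10.8 to 11.7% of that sum in ME and 25.5 to 26.8% in L28BME. The other 8 genes together were at 260 to 302 TPM in ME and 310.0 to 321 TPM in L28BME, and among these 8 the mean of Arid1a differed most.

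Mouse genes with an ARID domain that are not among the 10 are Arid3c, the third Arid3 paralog, and the histone H3K4 demethylase genes Kdm5a, Kdm5b, Kdm5c and Kdm5d. Arid3c was listed at 0 in 5 libraries and at 0.0469 TPM in L28BME replicate 1, and was not tested. Of the 4 tested genes 1 was called higher and 0 lower, beside 8.28% and 6.6% of all tested genes. Kdm5b rose from a mean of 18.1 ± 1.46 TPM to one of 22.7 ± 1.06 TPM, and its log2 fold change was 0.32 (limma adjusted p = 0.0402). It passed when ME replicate 1 was left out but not when any other library was (limma adjusted p = 0.0684 to 0.119). Kdm5a, Kdm5c and Kdm5d had log2 fold changes of 0.12, -0.01 and -0.11 and did not pass. Kdm5a held 1 8-base let-7 match in its 3′ UTR, shown as the counterpart of the Arid3a site.
Kdm5a, chr6:120440992-120441013, plus strand: tgtgggtatgagggCTACCTCA

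Genes of the complexes in which ARID proteins act had log2 fold changes of at most 0.47 in size. Of 23 tested BAF and PBAF subunits, 5 were called higher and 0 lower, beside 8.28% and 6.6% of all tested genes, with a median log2 fold change of 0.05. Phf10, a PBAF subunit, rose from 185 ± 8.499 to 242 ± 9.56 TPM (log2 fold change 0.38, limma adjusted p = 0.00462). Bcl11a, a zinc finger protein of B-lymphoid and fetal haemoglobin regulation that joins BAF, rose from 26.2 ± 1.14 to 34.9 ± 2.27 TPM, with a log2 fold change of 0.40 (limma adjusted p = 0.0122). Bcl7a and Smarcd1 were called with log2 fold changes of 0.31 and 0.20, and Bicral, the fifth, with 0.27. Without any 1 library other than L28BME replicate 1, the calls of Bcl7a (limma adjusted p = 0.0539 to 0.0728) and Smarcd1 (0.0875 to 0.119) were lost. Bicral lost its call without any 1 of the 6 libraries (limma adjusted p = 0.0657 to 0.111). With ME replicate 1, ME replicate 2, L28BME replicate 2 or L28BME replicate 3 left out, 2 genes of this list were called higher.

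Of 15 SIN3-HDAC and retinoblastoma genes, the partners of ARID4A and ARID4B, 1 was called higher and 1 lower. The shares over all tested genes were 8.28% and 6.6%. Rb1, the retinoblastoma gene, rose from 31.6 ± 0.401 to 38.9 ± 0.951 TPM (log2 fold change 0.29, limma adjusted p = 0.00804). Sap30, a SIN3 complex subunit, fell from 76.0 ± 2.95 to 61.1 ± 2.21 TPM, with a log2 fold change of -0.31 (limma adjusted p = 0.00948). Hdac1 and Sin3a had log2 fold changes of 0.13 and 0.11 and did not pass. Among 11 tested PRC2 genes, 1 was called higher and 0 lower. Phf1, a PRC2 accessory protein gene, rose from 5.79 ± 0.172 to 8.44 ± 1.21 TPM (limma adjusted p = 0.0365), and its call was lost without any 1 of the 6 libraries (0.0546 to 0.102). Phf19, Mtf2 and Ezh1 had log2 fold changes of -0.24, 0.24 and -0.12 and did not pass. In a short list of ARID5B and ARID3 partners, Phf2, Btk, Gtf2i and E2f1 had log2 fold changes of 0.15, -0.05, 0.04 and -0.01. Of these 4, 0 passed and 1, Phf2, had an unadjusted limma p under 0.05, beside 3954 of all 13348 tested genes. The median of every one of these lists lay between 0.01 and 0.06, beside 0.00333 for all tested genes.

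**Figure D4:**
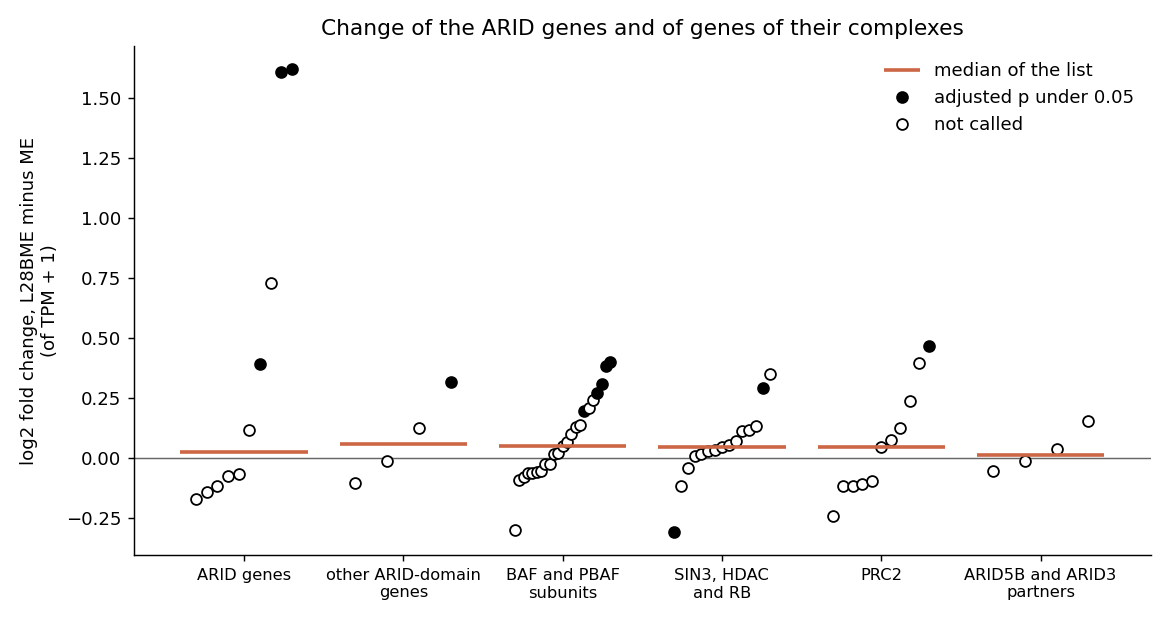
log2 fold change of TPM + 1, L28BME minus ME, of each tested gene in the ARID list and in 5 lists of related genes, in order of size within a list. Filled points were called (adjusted p under 0.05) and bars are list medians. Arid3a and Arid3b lie above 1.5, while the largest value in the related lists is 0.47, that of Phf1.

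The rise of the Arid3 pair stood beside that of other let-7 targets. In a list of let-7 targets without Arid3a, Arid3b, Lin28a and Lin28b, 14 of 25 tested genes were called higher and 2 lower, with a median log2 fold change of 0.42. Over all tested genes, 8.28% were called higher and 6.6% lower. The 2 lower were Cdk6 and Rrm2, with log2 fold changes of -0.28 and -0.27. With Arid3a, Arid3b, Lin28a and Lin28b included the counts were 18 and 2 of 29. With each library left out in turn, 13 to 16 of these 29 were called higher and 2 lower. The list was written with results of these samples known, so the count is not independent evidence of its direction. Among 6 tested genes of let-7 processing without Lin28a and Lin28b, 3 were called higher and 0 lower. They were Ago2, an Argonaute protein gene with 4 let-7 matches of its own (39.5 to 55.2 TPM), the terminal uridylyltransferase gene Tut4 (32.9 to 38.8 TPM) and Dicer1 (58.5 to 78.8 TPM). Tut4 passed with ME replicate 1 left out, but not with any other library left out (limma adjusted p = 0.0621 to 0.0981). Dicer1 lost its call without ME replicate 2, ME replicate 3 or L28BME replicate 3 (limma adjusted p = 0.0518 to 0.0697). Lin28b is the gene of the contrast, and Lin28a was low, with means of 1.29 TPM in ME and 3.47 TPM in L28BME (limma adjusted p = 0.0486). The call of Lin28a was lost without any 1 of the 6 libraries (0.0539 to 0.133). Including Lin28a and Lin28b, 5 of 8 genes were called higher. With ME replicate 2, ME replicate 3 or L28BME replicate 3 left out 2 were called, with L28BME replicate 1 or 2 left out 3, and with ME replicate 1 left out 4.

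Markers of some blood cell types moved between the groups in the same direction as Arid3a and Arid3b. The counts of called markers below stand beside 8.28% called higher and 6.6% called lower over all tested genes. The 12 B-lymphoid markers summed to 36.0 to 39.0 TPM in ME and 71.7 to 75.4 TPM in L28BME, and 4 of 6 tested were called higher. Those were Cd79b, Rag1, Rag2 and Ebf1, while the B cell markers Cd79a, Ms4a1, Pax5 and Blnk were under 1 TPM in every library. Cd79b made up most of the sum, and its mean rose from 27.2 to 56.9 TPM. Igll1 and Vpreb1, the 2 tested markers not called, had log2 fold changes of -0.47 and -0.03. Vpreb2 was not tested, and its mean went from 1.01 to 0.614 TPM with overlapping values. The 8 megakaryocyte markers summed to 83.1 to 87.0 TPM in ME and 139.6 to 158 TPM in L28BME, with 5 of 7 tested called higher. Of the 8 T and NK markers only Lck was tested, and it was called higher, while the other 7, Cd3e among them, were under 1 TPM in every library. The 8 erythroid markers summed to 10.9 to 19.7 TPM in ME and 21.0 to 34.0 TPM in L28BME. Of 4 tested, 0 were called and 3 had an unadjusted limma p under 0.05, beside 3954 of all 13348 tested genes. Other lists were lower in sum: the 12 neutrophil markers (9428 to 9615 and 7274 to 8157 TPM), the 8 monocyte and macrophage markers (547 to 583 and 382 to 418 TPM) and the 7 mast cell and basophil markers (576 to 616 and 510.3 to 528 TPM). Of these, 5 of 11 tested neutrophil markers were called higher and 3 lower, 1 of 8 monocyte markers higher and 5 lower, and 0 of 7 mast cell markers higher and 2 lower. The 3 lower neutrophil markers, Mpo, Ctsg and Elane, made up most of the neutrophil sum. The 5 higher were S100a8, S100a9, Ngp, Ltf and Mmp8, with log2 fold changes of 1.35, 1.46, 1.26, 0.84 and 0.35. Of the 5 tested sort and progenitor genes, 1 was called higher, which was Flt3, and 3 lower, among them Ly6a and Cd48. The part of these cell types in the change of the ARID genes was not tested.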

How the data were processed

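The data were RNA-seq values of 6 libraries, 3 per group, made with a stranded mRNA kit, per the labels' protocols. The submitters' processing notes name bcl2fastq, HISAT2, StringTie and DESeq2 and the build GRCm38. The sources used here do not give versions or say whether strand was used. The deposited values were TPM per gene and library, beside each gene's GC content in percent, an annotation value deposited by the authors. The table had 60496 entries, and the 431 IDs listed more than once had values on at most 1 entry and were merged by sum.

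Genes with at least 1 TPM in at least 3 libraries were analysed as log2(TPM + 1) in limma 3.58.1 (R 4.3.3), with two-sided tests and a trend of the prior variance on intensity. Benjamini-Hochberg adjustment ran over all 13348 tested genes, with calls at adjusted p under 0.05. Intervals are limma's 95% intervals. A fold on this scale understates changes of low genes. The procedure was tested on simulated data. Coordinates, biotypes and 3′ UTRs came from GENCODE M21 (GRCm38), which held 55144 of 55471 IDs, and mature microRNAs from RefSeq.

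The ARID genes, the gene lists and the tests were chosen with earlier results of these data known. Named genes were the 10 members, the other ARID-domain genes, Lin28b, Hmga2 and up to 4 genes of each related list with the smallest p. Bicral, Flt3, Lin28a, Cdk6, Rrm2, the named cell markers and genes with let-7 matches were named after their values were seen. The alternatives changed the pseudocount, the filter, the scaling or limma's options, added a term for replicate number, kept protein-coding genes only, summed overlapping gene models or left out each library. Removal of a GC trend was added after seeing the data. Exonic bases on the same strand were shared by 1 member, Arid2, with a small RNA gene model at a mean of 0.305 TPM. Tools were Python 3.11.15, numpy 2.4.6, pandas 2.3.3, scipy 1.17.1 and matplotlib 3.10.9.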

Additional observations from a re-analysis of the deposited data

How the results depend on the processing

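The calls of Arid3a and Arid3b held under all 18 alternatives, with log2 fold changes of 1.58 to 1.64 and 1.54 to 1.73. The members called lower were 1, which was Arid2, with equal medians, quantile normalization, protein-coding genes only or the GC trend removed. Leaving out each library gave 2 to 4 members higher, 0 lower, and 1078 to 1264 genes called in place of 1986, with fewer samples in the fit. It also gave 2 to 4 BAF and PBAF genes, 0 to 1 ARID-domain genes outside the members, 0 to 1 PRC2 genes and 2 to 4 let-7 processing genes higher. Leaving out each library gave log2 fold changes of -0.11 to 0.000841 for Arid4a, reversed without ME replicate 1, and of -0.154 to 0.0629 for Arid1b, reversed without ME replicate 2 or L28BME replicate 3. Neither was called. With no filter on low values, more genes were tested, and the higher genes were 0 of the ARID-domain genes outside the members, 3 BAF and PBAF genes and 0 PRC2 genes. Equal medians gave 0 ARID-domain genes outside the members and 3 BAF and PBAF genes higher, and removal of the GC trend 0 PRC2 genes. The cause was not tested. Counting 8-base matches alone left 1 match in the Arid3 pair and 0 in other members. Same-numbered libraries did not deviate together (correlations of -0.032, -0.074 and -0.052), so they were not treated as pairs, and whether they share an animal or batch is not stated. The replicate block, which leaves fewer degrees of freedom, called 948 genes, the same 3 members, 0 ARID-domain genes outside the members, 2 BAF and PBAF genes, 0 PRC2 genes and 2 let-7 processing genes higher. In this balanced design the block cannot move a difference of means, and the log2 ratio of Arid3a to Arid3b stayed at -0.01 by construction. Depth is unknown, which limits what can be said of genes near 0 such as Arid3c.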

Other observations

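Of the 25 tested genes with at least 4 let-7 seed matches in the longest 3′ UTR, 11 were called higher, and these were chosen for naming after their values were seen. Besides Arid3a, Arid3b, Hmga2, Lin28b and Ago2 they were Pou2f2, Ptafr, Zc3hav1l, Trim6, Hic2 and Hif1an. Of these, Lin28b is the gene of the genotype contrast and was listed at 0 in ME. Pou2f2, which encodes the B-lymphoid factor OCT2, had 4 matches and a log2 fold change of 1.51 (limma adjusted p = 6.06e-04), close to the values of the Arid3 genes. Ptafr, the receptor of platelet-activating factor, had 4 matches and 1.32. Zc3hav1l had 4 matches and 1.17. Trim6, a ubiquitin ligase gene, had 6 matches and 0.99. Hic2 and Hif1an, a transcriptional repressor and an asparagine hydroxylase of hypoxia factors, had 5 matches each and 0.70 and 0.67. The number of matches did not order the changes: Mcf2l and Nudt12 had 7 matches each and log2 fold changes of -0.11 and 0.01, and neither was called. Annotated 3′ UTRs of the 14 genes that were not called reached 122583 bases in D10Wsu102e, and whether such UTRs are used in these cells was not measured.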
